A study of Homo sapiens with 7 samples.

Results

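The genes described here encode the protein subunits of oxidative phosphorylation (OXPHOS), followed in 2 palbociclib-resistant clones of the breast cancer line T47D and in the parental cells. Members were chosen by gene symbol alone. Mitochondrially encoded genes were the MT- symbols of the ND, CO, CYB and ATP families. Nuclear genes were the numbered NDUFA, NDUFB, NDUFC, NDUFS and NDUFV genes of complex I, SDHA to SDHD of complex II, 8 UQCR genes of complex III, 10 COX genes of complex IV and the ATP5 genes of complex V. The rule found 92 rows with 89 symbols among 63677 rows in the count table. Of these, 13 rows were mitochondrially encoded and 79 rows, with 76 symbols, were nuclear. Enough counts for a test were present for 88 rows, namely all 13 mitochondrial and 75 nuclear ones. The 4 untested rows were 2 further NDUFA6 entries at 0 counts in every library, a further NDUFA7 entry with at most 1 count in a library, and ATP5L2, with 1 count in all.

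RNA was sequenced from 7 libraries. T47D is an estrogen receptor-positive human breast cancer line, and palbociclib inhibits the cell cycle kinases CDK4 and CDK6. Resistant clone 4 (T47D_CL4) and resistant clone 2 (T47D_RES_CL2) gave 2 libraries each, and palbociclib-sensitive parental cells (T47D_PAR) gave 3. Per the labels' protocols, resistant cells were grown for 6 months in palbociclib that was raised from 1 to 5 uM, and experiments were then run in medium without the drug unless stated otherwise. The same protocol gives the maintenance dose as 5 mM, so the source is inconsistent on its unit. Parental cells are not described as drug-exposed, and all cells shared an alpha MEM medium with serum, insulin, EGF and hydrocortisone. Each resistant group is 1 clone, so resistance, long drug exposure and variation between clones cannot be told apart. The labels number the libraries as biological replicates without saying whether separate cultures were used, so p-values measure only the spread between these libraries, which may be technical.

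Library totals ran between 10997625 and 17524621 counts. All 10 luminal epithelial markers were found in every group, at a summed 11400 to 12160 CPM in clone 4 and 10760 to 11070 CPM in clone 2, against 14110 to 17500 CPM in parental cells. At an edgeR adjusted p below 0.05, 2 were called higher and 3 lower in clone 4, beside 22.1% and 22.3% of all genes. In clone 2, 1 was higher and 5 lower, beside 21.7% and 20.8%. The 8 fibroblast markers summed to 70.8 to 99.3 CPM in clone 4 and 231 to 253 CPM in clone 2, against 39.2 to 41.4 CPM in parental cells. Among them FAP was at 0 in all libraries, PDGFRB had 1 count in all, and COL3A1 averaged 95.7 CPM in clone 2 and had at most 1 count in any other library. Of the 4 fibroblast markers tested, 1 was called higher and 0 lower in clone 4, with a median log2 fold change of -1.08. In clone 2 all 4 were called higher, with a median of 2.63. The 6 leukocyte markers summed to at most 3.64 CPM, with TYROBP at 0. The 6 basal epithelial markers summed to 12.5 to 13.8 CPM in clone 4 and 20.7 to 20.9 CPM in clone 2, against 16.9 to 25.1 CPM in parental cells. The part of these marker differences in the results below was not tested.

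OXPHOS is carried out in the inner mitochondrial membrane. Complexes I and II pass electrons from NADH and succinate to ubiquinone, complex III passes them on to cytochrome c, and complex IV passes them to oxygen. Complexes I, III and IV pump protons, and complex V, the ATP synthase, uses the gradient to make ATP. Mitochondrial DNA encodes the membrane-embedded core of complexes I, III and IV and part of the proton channel of complex V, and is transcribed as long polycistronic RNAs inside the organelle. All other subunits, including the whole of complex II, come from nuclear genes that are transcribed separately, and their products are imported. Estrogen receptor-positive breast cancer cells, like most cells, make ATP by both glycolysis and OXPHOS.

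Nuclear OXPHOS promoters are known for sites of NRF1, of ETS proteins such as GABPA, of YY1 and of the estrogen-related receptors. A window from 250 bases before to 50 after the gene start was matched by symbol, identifier or synonym for 61 of the 75 tested nuclear members (RefSeq, GRCh38.p14). Both strands were searched for GCGCATGCG (NRF1), CCGGAAG (ETS), AAGATGGCG (YY1) and TCAAGGTCA (estrogen-related receptors). NRF1 letters were in 10 of 61 member promoters (16.4%), against 1.92% of all 35116 promoters in the table. ETS letters were in 19 (31.1%), against 10.3%. YY1 letters were in 8 (13.1%), against 1.75%. Estrogen-related receptor letters were in 1, that of SDHD (1.64%), against 0.353%. In all, 30 member promoters (49.2%) held at least 1 of the 4 motifs, against 13.4%. In 4 promoters (NDUFA8, NDUFB4, SDHD and ATP5C1) matches overlapped, since an NRF1 site read on both strands counted in each direction. A match describes letters and is no evidence of binding.

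The 5 promoters shown belong to members named in the results below. ATP5I had the widest gap between the clones among the opposite calls. SDHD held 3 kinds of motif, and ATP5J held NRF1, YY1 and ETS letters. NDUFB1 and UQCRC2 held none of the 4 motifs in this window. Capitals mark the matched letters, and each sequence runs 5′ to 3′ on the gene's strand. The coordinates are of GRCh38.p14, while the counts were made on hg19.
ATP5I promoter, chr4:674227-674526, minus strand: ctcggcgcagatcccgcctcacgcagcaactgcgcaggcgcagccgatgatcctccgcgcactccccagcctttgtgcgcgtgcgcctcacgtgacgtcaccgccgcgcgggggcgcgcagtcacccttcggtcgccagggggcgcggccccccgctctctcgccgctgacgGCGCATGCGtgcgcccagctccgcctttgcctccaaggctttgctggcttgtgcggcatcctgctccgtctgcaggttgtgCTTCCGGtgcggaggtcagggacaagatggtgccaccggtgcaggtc
SDHD promoter, chr11:112086623-112086922, plus strand: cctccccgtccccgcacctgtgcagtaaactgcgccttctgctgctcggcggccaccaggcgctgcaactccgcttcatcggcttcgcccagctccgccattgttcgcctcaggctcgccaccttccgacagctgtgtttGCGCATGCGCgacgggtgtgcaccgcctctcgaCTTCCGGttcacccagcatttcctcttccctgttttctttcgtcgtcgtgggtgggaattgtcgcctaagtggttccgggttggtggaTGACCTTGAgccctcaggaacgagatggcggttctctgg
ATP5J promoter, chr21:25735005-25735304, minus strand: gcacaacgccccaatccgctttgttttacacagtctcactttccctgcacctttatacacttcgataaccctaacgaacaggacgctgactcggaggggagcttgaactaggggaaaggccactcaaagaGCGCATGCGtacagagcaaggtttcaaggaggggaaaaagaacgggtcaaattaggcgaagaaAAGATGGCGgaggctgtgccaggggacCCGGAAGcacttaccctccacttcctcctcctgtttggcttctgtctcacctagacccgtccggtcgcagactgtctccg
NDUFB1 promoter, chr14:92121657-92121956, minus strand: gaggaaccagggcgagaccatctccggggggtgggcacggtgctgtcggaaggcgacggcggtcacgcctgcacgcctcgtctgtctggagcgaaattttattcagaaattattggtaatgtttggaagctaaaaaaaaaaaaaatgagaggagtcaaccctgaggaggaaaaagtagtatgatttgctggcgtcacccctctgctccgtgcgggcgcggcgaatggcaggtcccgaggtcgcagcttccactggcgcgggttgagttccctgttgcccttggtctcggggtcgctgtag
UQCRC2 promoter, chr16:21953111-21953410, plus strand: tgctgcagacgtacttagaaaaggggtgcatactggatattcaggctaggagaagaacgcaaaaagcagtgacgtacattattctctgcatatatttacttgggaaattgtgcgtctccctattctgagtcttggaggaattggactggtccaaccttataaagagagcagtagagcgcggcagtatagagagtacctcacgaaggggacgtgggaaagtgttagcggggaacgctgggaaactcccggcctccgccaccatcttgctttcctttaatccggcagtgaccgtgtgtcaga

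Clone 4 carried more mitochondrially encoded subunit RNA than parental cells, while few of these genes were called in clone 2 (edgeR adjusted p below 0.05). There 3 of 13 were lower (23.1%) and 1 higher (7.69%), beside 20.8% and 21.7% of all genes. The 13 genes took 11.6% and 14.4% of all counts in clone 4 and 10.4% and 10.2% in clone 2, against 9.51%, 9.78% and 9.65% in parental cells. By this unscaled share both clones lay above every parental library, and clone 4 replicate 2 lay above all others. With 2 libraries against 3, an exact permutation test of such a share cannot reach a p of 0.05, so none was run. The 79 nuclear rows together took 1.36% and 1.38% in clone 4 and 1.06% and 1.06% in clone 2, against 1.34%, 1.44% and 1.41% in parental cells. Clone 4 overlapped the parental range and clone 2 lay below it. The ratio of mitochondrial to nuclear subunit counts was 8.51 and 10.4 in clone 4 and 9.77 and 9.60 in clone 2, against 7.08, 6.80 and 6.85 in parental cells. CPM, counts scaled to each library's TMM-adjusted total, compare shares of a library's RNA, so fewer mitochondria or cells of a type and less RNA per cell cannot be told apart. The TMM factors were 0.989 and 0.953 in clone 4 and 1.07 and 1.08 in clone 2, against 0.976, 0.964 and 0.976 in parental cells. On that scale the summed 13 genes lay below every parental library in clone 2, narrowly for one library, and stayed above in clone 4. The direction in clone 2 therefore depends on the scaling.

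**Figure D1:**
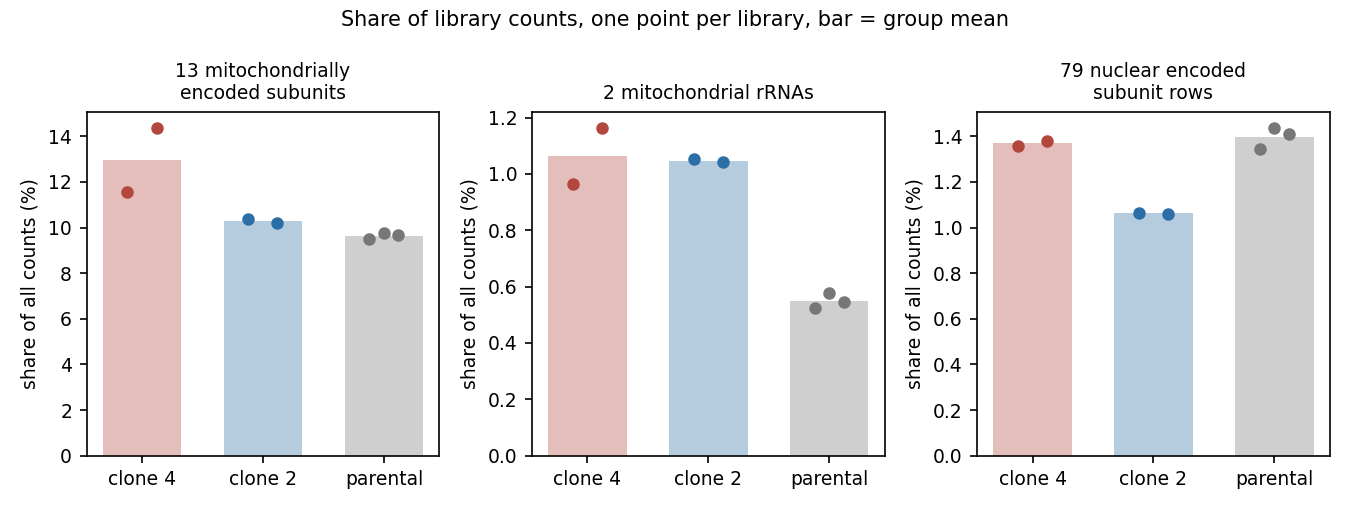
Share of all counts (%, linear axis from 0) taken by the 13 mitochondrially encoded subunits, the 2 mitochondrial rRNAs and the 79 nuclear subunit rows in clone 4, clone 2 and parental cells; points are libraries and bars group means. Shares are of unscaled counts. Mitochondrial shares are above the parental range in both clones, but with TMM scaling the 13 subunits of clone 2 fall below it. The nuclear share is below the parental range in clone 2 alone, at 1.06%, against 1.36% and 1.38% in clone 4.

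Relative to parental cells, 6 of the 13 mitochondrial genes rose in clone 4 and 0 fell (edgeR quasi-likelihood test, Benjamini-Hochberg adjusted p below 0.05 over 17502 genes). Among all genes tested, 44.4% were called in this comparison, 22.1% higher and 22.3% lower. The median log2 fold change of the 13 was 0.32, against 0.01 for all genes. All 13 fold changes were above 0, so that 0 were lower at an unadjusted p below 0.05 as well, and DESeq2 also called 0 lower. The 6 were MT-ND1, MT-ND2, MT-CYB, MT-CO1, MT-CO2 and MT-CO3, that is 2 complex I subunits, cytochrome b of complex III and the whole mitochondrial part of complex IV.

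MT-CO2, the complex IV subunit that receives electrons from cytochrome c, had 13102 and 16054 CPM in clone 4 and 11521 and 11267 CPM in clone 2, against 9078, 9231 and 8560.3 CPM in parental cells. All resistant libraries lay above all parental ones. The log2 fold change, given here and below ± its standard error, was 0.70 ± 0.11 (adjusted p = 2.42e-04, edgeR) in clone 4 and 0.35 ± 0.11 (adjusted p = 0.0248, edgeR) in clone 2. MT-CO1, the catalytic subunit of complex IV, had 20429 and 27573 CPM in clone 4 and 17717 and 17440 CPM in clone 2, against 14042, 14968 and 16940 CPM in parental cells. Both clone 4 libraries and, more narrowly, both clone 2 libraries exceeded the parental range. Its change was 0.65 ± 0.13 (adjusted p = 0.00163, edgeR) in clone 4 and 0.20 ± 0.14 (adjusted p = 0.258, edgeR) in clone 2, the second not called. MT-CO3, the third mitochondrial subunit of complex IV, had 12275 and 17386 CPM in clone 4 and 11529 and 10959 CPM in clone 2, against 9835, 10104 and 10770 CPM in parental cells. Again no resistant library overlapped the parental ones, with a change of 0.53 ± 0.13 (adjusted p = 0.00570, edgeR) in clone 4 and 0.14 ± 0.14 (adjusted p = 0.447, edgeR), not called, in clone 2. MT-CYB, which carries the b hemes of complex III, had 12773 and 15802 CPM in clone 4 and 9029 and 8536 CPM in clone 2, against 10305, 10720 and 9847 CPM in parental cells. Clone 4 lay above the parental range and clone 2 below it. Its change was 0.47 ± 0.12 (adjusted p = 0.00474, edgeR) in clone 4 and -0.23 ± 0.12 (adjusted p = 0.134, edgeR), not called, in clone 2.

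The 7 mitochondrial subunits of complex I behaved less alike. MT-ND2, a proton-pumping subunit, had 8271 and 11273 CPM in clone 4 and 5188 and 5004 CPM in clone 2, against 6452, 6160.5 and 5920.4 CPM in parental cells. Clone 4 was above and clone 2 below the parental range, with changes of 0.66 ± 0.13 (adjusted p = 8.86e-04, edgeR) and, not called, -0.28 ± 0.13 (adjusted p = 0.0987, edgeR) in clone 2. MT-ND1, which sits beside the ubiquinone pocket, had 4146 and 5159.9 CPM in clone 4 and 3290.0 and 3175 CPM in clone 2, against 3536, 3717 and 3564 CPM in parental cells. The groups did not overlap in either comparison, and the change was 0.37 ± 0.11 (adjusted p = 0.0161, edgeR) in clone 4 and -0.16 ± 0.11 (adjusted p = 0.28, edgeR), not called, in clone 2. Clone 2 instead had 3 mitochondrial genes called lower and 1 higher, MT-CO2, by edgeR, while DESeq2 called 6 lower and 1 higher. Among all genes tested, 42.5% were called in clone 2 against parental cells, 21.7% higher and 20.8% lower, and the median of the 13 was -0.19, against 0.02 for all genes. MT-ND3, a small membrane subunit, had 4146 and 5626 CPM in clone 4 and 2309 and 2287 CPM in clone 2, against 5041, 5284 and 4139 CPM in parental cells. Both clone 2 libraries were below every other library, and clone 4 overlapped parental cells. Its change in clone 2 was -1.07 ± 0.14 (adjusted p = 5.99e-05, edgeR), a fold of 2.10 downward, and in clone 4 it was 0.02 ± 0.14 (adjusted p = 0.924, edgeR), not called. MT-ND6, the only one of the 13 on the light strand, had 2740.5 and 3574 CPM in clone 4 and 1689 and 1699.7 CPM in clone 2, against 2805, 3198 and 2741 CPM in parental cells. MT-ND5, a large proton-pumping subunit, had 6355 and 7911 CPM in clone 4 and 4276 and 4165 CPM in clone 2, against 5567, 6299 and 6737 CPM in parental cells. For both, clone 2 was below all other libraries and clone 4 overlapped parental cells. The changes in clone 2 were -0.78 ± 0.13 (adjusted p = 2.57e-04, edgeR) for MT-ND6 and -0.55 ± 0.12 (adjusted p = 0.00281, edgeR) for MT-ND5.

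The other 4 mitochondrial genes passed the test in neither clone. MT-ND4, the most highly counted complex I gene, had 20679 and 25860 CPM in clone 4 and 20046 and 19462 CPM in clone 2, against 18742, 20420 and 19631 CPM in parental cells, and its changes were 0.25 in clone 4 and 0.01 in clone 2. MT-ND4L, which shares its transcript with MT-ND4, had 1878 and 2235 CPM in clone 4 and 1609 and 1668 CPM in clone 2, against 1837, 1926 and 2035 CPM in parental cells, with changes of 0.09 and -0.24 in clones 4 and 2. Between these 2 genes, MT-ND4 in clone 4 and MT-ND4L in clone 2 stood clear of the parental range. MT-ATP6, part of the proton channel of complex V, had 8854 and 11094 CPM in clone 4 and 8210.0 and 7498 CPM in clone 2, against 9064, 8416 and 7184 CPM in parental cells, and MT-ATP8 had 1227 and 1255 CPM in clone 4 and 911 and 825 CPM in clone 2, against 1171, 1027 and 776 CPM in parental cells. MT-ATP6 overlapped parental cells in both clones, while MT-ATP8 was above the parental range in clone 4 and overlapped it in clone 2. Their changes were 0.28 and 0.32 in clone 4 and -0.07 and -0.19 in clone 2. Exon annotation of MT-ATP8 overlaps MT-ATP6 over 22.2% of its bases, so their reads cannot be fully separated. MT-ATP6 also has a nuclear copy with counts assigned to it, MTATP6P1, that differs at 10 of 681 aligned bases, and MT-ND2 has MTND2P28, which differs at 17 of 1042. The copies held 14594 to 23522 and 1954 to 4176 counts per library, so reads may be shared between copy and gene. MTND2P28 was called higher in clone 4 (0.54) and lower in clone 2 (-0.39).

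**Figure D2:**
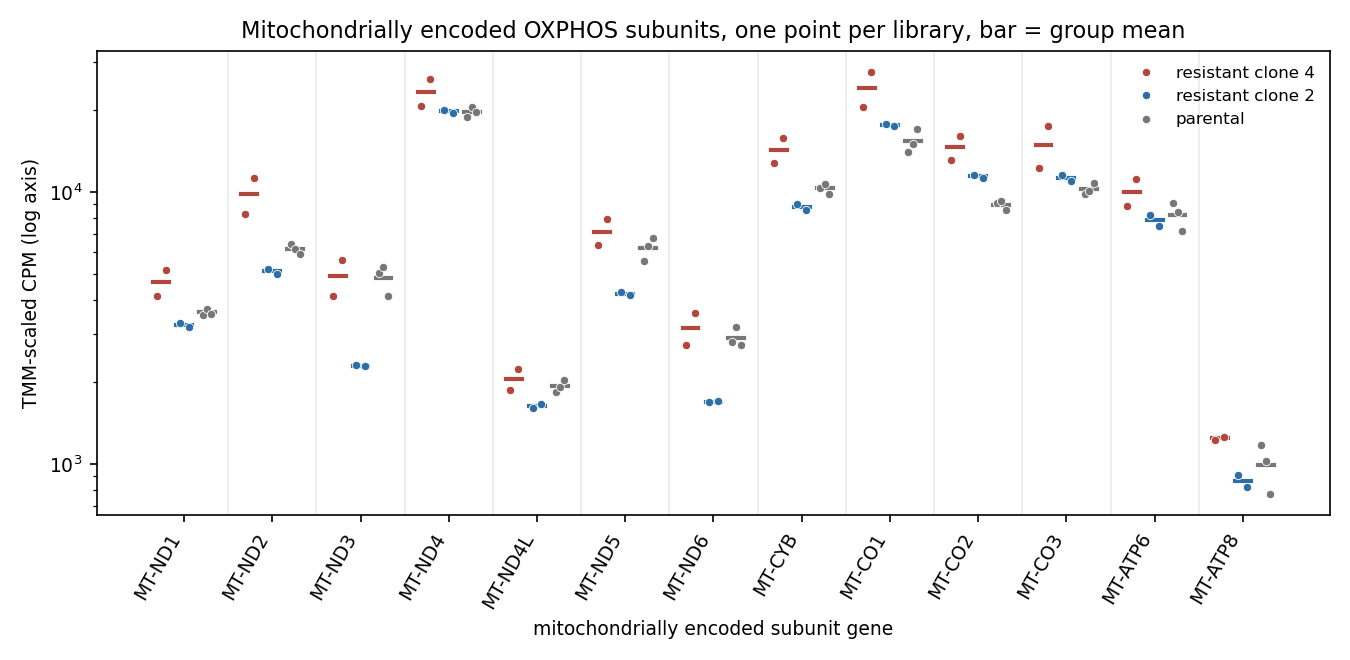
TMM-scaled CPM (log axis) of the 13 mitochondrially encoded subunits, one point per library and a bar at each group mean, with clone 4, clone 2 and parental cells from left to right for each gene. Clone 2 lies below clone 4 for all 13 genes, and clone 4 replicate 2 is the highest library for every gene; MT-ND3, MT-ND5 and MT-ND6 are the genes where clone 2 falls furthest below parental cells.

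Compared directly, clone 2 was below clone 4 for 10 of 13 mitochondrial genes and above it for 0 (edgeR), with a median log2 fold change of -0.52, against 0.03 for all genes. In this comparison 36.5% of all genes were called, 19.6% higher and 17% lower. DESeq2 called 12 lower and 0 higher. All 13 clone 2 ranges lay below the clone 4 ranges. How many of all genes were separated in this way was not computed, and the 13 genes share the same libraries. The 3 not called were MT-ND4 (-0.24), MT-CO3 (-0.40) and MT-ATP6 (-0.34), and the 2 lowest were MT-ND3, at -1.09 ± 0.15 (adjusted p = 1.66e-04, edgeR), and MT-ND2, at -0.94 ± 0.14 (adjusted p = 2.48e-04, edgeR). Clone 4 replicate 2 carried much of the weight in these counts, though fewer of all genes were called without it as well. Without it, 3 mitochondrial genes were called higher in clone 4 against parental cells (MT-ND2, MT-CO1 and MT-CO2), while MT-ND1 (0.20), MT-CYB (0.31) and MT-CO3 (0.26) were not. Without clone 4 replicate 1, 9 were called, MT-ND4, MT-ND5 and MT-ATP6 being added. MT-ND1 also lost its call without parental replicate 1, and MT-CO2 its call in clone 2 without either clone 2 library or parental replicate 1, so that 0 were then higher. Between the clones the count lower was 6 without clone 4 replicate 2, 6 without clone 2 replicate 1 and 5 without clone 2 replicate 2. Among all genes 2250, 1605 and 1406 were then lower, against 2974 in the main fit. In clone 2 against parental cells the count of mitochondrial genes lower was 5, in place of 3, without either clone 4 library. Without clone 4 replicates 1 and 2, 3929 and 3960 of all genes were lower there, against 3638 in the main fit.

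Levels can be compared between genes only per length. As CPM per 1000 bases of transcript, the mitochondrial genes ran from 3937 (MT-ND5) to 21313 (MT-CO2) in clone 4 and from 2329 (MT-ND5) to 16658 (MT-CO2) in clone 2, against 3422 (MT-ND5) to 14222 (MT-ND4) in parental cells. MT-CO2 thus headed the order in both clones and MT-ND4 in parental cells, although MT-ND4, MT-ND3, MT-CO2 and MT-CO3 in parental cells lay within 13056 to 14222. The tested nuclear members reached at most 811 CPM per 1000 bases in clone 4 (COX4I1) and 534 in clone 2 (ATP5B), against 839.5 in parental cells (ATP5G2). As a share of the counts on the 13 genes, MT-ND3 took 3.55% and 3.73% in clone 4 and 2.37% and 2.43% in clone 2, against 5.17%, 5.21% and 4.19% in parental cells, so that both clones were below the parental range. MT-CO2 took 11.2% and 10.7% in clone 4 and 11.84% and 11.99% in clone 2, against 9.31%, 9.10% and 8.66% in parental cells, so that both were above it.

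The mitochondrial rRNAs, which are not subunits but come from the same genome, moved together in both clones. MT-RNR1 and MT-RNR2, the rRNAs of the mitochondrial ribosome, took a summed 0.966% and 1.16% of counts in clone 4 and 1.05% and 1.04% in clone 2, against 0.524%, 0.579% and 0.544% in parental cells. No resistant library overlapped a parental one. MT-RNR2 changed by 0.98 ± 0.11 (adjusted p = 1.31e-05, edgeR) in clone 4 and 0.85 ± 0.11 (adjusted p = 5.12e-05, edgeR) in clone 2, and MT-RNR1 by 0.92 ± 0.12 (adjusted p = 4.66e-05, edgeR) and 0.64 ± 0.12 (adjusted p = 8.41e-04, edgeR). Whether the libraries were made from poly(A) RNA or after rRNA removal is not given in the sources used here. Of 10 tested mitochondrial tRNA genes, 4 were called higher in clone 4, beside 22.1% of all genes. In clone 2, 2 were higher and 1 lower, beside 21.7% and 20.8% of all genes. MT-TY was higher in both, with log2 fold changes of 1.30 in clone 4 and 0.69 in clone 2, and MT-TE was lower in clone 2, with a log2 fold change of -1.57.

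Nuclear subunits were lower in clone 2 across all 5 complexes. Of 75 tested, 59 were called lower and 2 higher against parental cells, beside 20.8% lower and 21.7% higher among all genes, and the median log2 fold change was -0.51, against 0.02. Called lower were 25 of 36 in complex I, all 4 in complex II, 6 of 8 in complex III, 10 of 11 in complex IV and 14 of 16 in complex V. The medians ran from -0.43 in complex II to -0.71 in complex V. For 61 of the 75, both clone 2 libraries were below every parental one. How many of all genes were separated in this way was not computed, so this count is only a description. Without clone 2 replicate 1 or replicate 2, fewer members were called lower, and so were fewer of all genes. The test against a fold of 1.5 called 11, beside 3.93% of all genes.

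In complex I, the 7 nuclear core subunits hold the flavin and the iron-sulfur clusters. In clone 2, 2 of them were called lower (28.6%) and 1 higher (14.3%), beside 20.8% and 21.7% of all genes. Their median was -0.12. Of the 29 tested accessory subunits, which surround the core, 23 were lower and 1 higher, with a median of -0.50. NDUFB5, of the membrane arm, had 138 and 145 CPM in clone 2, against 299, 294 and 310.1 CPM in parental cells. The ranges did not overlap, and its log2 fold change was -1.09 ± 0.10 (adjusted p = 2.80e-06, edgeR). NDUFA2, of the matrix arm, had 109 and 105 CPM in clone 2, against 200.3, 261 and 215 CPM in parental cells. Both clone 2 libraries again lay below all parental ones, with -1.08 ± 0.14 (adjusted p = 3.19e-05, edgeR). Of the core, NDUFS1, an iron-sulfur subunit, had 80.8 and 82.4 CPM in clone 2, against 129, 121 and 114 CPM in parental cells, with no overlap and a change of -0.57 ± 0.10 (adjusted p = 4.98e-04, edgeR). NDUFV1, which binds NADH and flavin, had 233 and 222 CPM in clone 2, against 234, 249.6 and 215 CPM in parental cells. Its groups overlapped, and its change of -0.04 was not called. The 2 higher members were NDUFV2 and NDUFA11. NDUFA11, a membrane arm subunit, had 16.4 and 16.1 CPM in clone 2, against 10.5, 12.4 and 11.8 CPM in parental cells, with 0.48 ± 0.18 (adjusted p = 0.04, edgeR). That call was lost without any 1 of the clone 2 or parental libraries, and its clone 4 call (0.63) without clone 4 replicate 2. NDUFV2, whose protein is a partner of NDUFV1, had only 19 and 30 counts in clone 2, against 8, 12 and 15 in parental cells, and its call was lost without either clone 2 library or parental replicates 1 or 2. The count of higher members was 0 without either clone 2 library, and without parental replicates 1 or 2, and 1 without parental replicate 3. Among all genes 2443 and 2328 were higher without clone 2 replicates 1 and 2. Without parental replicates 1, 2 and 3 these were 3250, 3293 and 3853, against 3805 in the main fit.

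NDUFV2, NDUFA7 and NDUFA13 were counted far below their partners, at a mean of 1.33, 1.95 and 1.35 CPM, and none exceeded 41 counts in a library. In the GENCODE v29 annotation, 28.4% of NDUFV2 exon bases are shared with AP005263.1, 33.5% of those of NDUFA7 with AC010323.1 or RPS28, and 21% of those of NDUFA13 with AC011448.1 or YJEFN3. Overlapping features can take or split reads, and the part of this in their low counts was not tested. NDUFA13 rose between the clones on 20 and 41 counts in clone 2, against 14 and 7 in clone 4, and lost that call without clone 4 replicate 2 or clone 2 replicate 2.

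All 4 subunits of complex II, which also serves the citrate cycle, were lower in clone 2. SDHD, a membrane anchor, had 142 and 146 CPM in clone 4 and 93.0 and 89.0 CPM in clone 2, against 160.2, 171 and 184 CPM in parental cells. Both clone 2 libraries were far below all others and clone 4 was just below the parental range. Its change was -0.92 ± 0.10 (adjusted p = 9.65e-06, edgeR) in clone 2 and -0.25 ± 0.10 (adjusted p = 0.0492, edgeR) in clone 4. SDHA, the flavoprotein, had 184 and 153 CPM in clone 4 and 164 and 167 CPM in clone 2, against 227, 222 and 216 CPM in parental cells. Both clones were below the parental range, with -0.42 ± 0.10 (adjusted p = 0.00470, edgeR) in clone 2 and -0.40 ± 0.10 (adjusted p = 0.00665, edgeR) in clone 4. SDHC, the other anchor, changed by -0.44 in clone 2 and -0.34 in clone 4, both called. SDHB, the iron-sulfur subunit, changed by -0.38 in clone 2, called, and by -0.19 in clone 4, not called. SDHD lost its clone 4 call without any single library except parental replicate 1, SDHC without clone 4 replicate 2 or parental replicate 1, and SDHA without clone 4 replicate 2. In clone 2, SDHA and SDHC lost their calls without either clone 2 library.

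In complex III, UQCRC2, a large core protein of the matrix side, fell in both clones and further in clone 4. It had 151 and 124 CPM in clone 4 and 214 and 208 CPM in clone 2, against 384, 331 and 335 CPM in parental cells. The 3 groups did not overlap, and its changes were -1.35 ± 0.12 (adjusted p = 1.01e-06, edgeR) in clone 4 and -0.73 ± 0.11 (adjusted p = 1.73e-04, edgeR) in clone 2. Clone 2 was above clone 4 by 0.62 ± 0.12 (adjusted p = 0.0016, edgeR) on the log2 scale. UQCRFS1, the Rieske iron-sulfur protein, had 77.8 and 59.3 CPM in clone 4 and 94.8 and 96.3 CPM in clone 2, against 90.6, 90.3 and 90.2 CPM in parental cells. It fell in clone 4, with -0.40 ± 0.12 (adjusted p = 0.0128, edgeR), a call lost without clone 4 replicate 2, while its change in clone 2 was 0.08 and not called. UQCRB, UQCRH, UQCRC1, UQCRQ and UQCR10 made up the rest of the 6 lower members in clone 2, with UQCRH at -0.62 and UQCRB at -0.60. UQCR11 was higher in clone 4 at 0.61, and its clone 2 value of 0.14 was not called.

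In complex IV, clone 2 had 10 of 11 nuclear members lower, all but NDUFA4. COX6B1, on the intermembrane space side, had 138 and 136 CPM in clone 2, against 238, 267 and 266 CPM in parental cells. COX6A1, a membrane subunit, had 61.3 and 59.7 CPM in clone 2, against 104, 112 and 111 CPM in parental cells. For both, all clone 2 libraries were below all parental ones, with changes of -0.91 ± 0.11 (adjusted p = 1.70e-05, edgeR) for COX6B1 and -0.85 ± 0.11 (adjusted p = 4.15e-05, edgeR) for COX6A1. In clone 4, only COX8A was higher and only COX5A lower among these 11. COX5A had 109 and 96.1 CPM in clone 4, against 134, 146 and 132 CPM in parental cells, without overlap and with -0.42 ± 0.10 (adjusted p = 0.0042, edgeR). NDUFA4, once assigned to complex I and now to complex IV, changed by -0.20 in clone 2 and 0.12 in clone 4, neither called. The mitochondrial partners MT-CO1, MT-CO2 and MT-CO3 had clone 2 changes of 0.20, 0.35 and 0.14, opposite in sign to all 11 nuclear members of that complex, though MT-CO2 alone of the 3 was called.

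In complex V, ATP5G1, 1 of 3 genes for the c subunit that forms the rotating ring, had the lowest value of all nuclear members in clone 2. It had 130.2 and 146 CPM in clone 4 and 81.5 and 78.3 CPM in clone 2, against 188, 213 and 214 CPM in parental cells. The 3 groups did not overlap, and its changes were -1.36 ± 0.11 (adjusted p = 4.25e-07, edgeR) in clone 2, a fold of 2.57 downward, and -0.57 ± 0.10 (adjusted p = 5.35e-04, edgeR) in clone 4. ATP5G3, the third gene for the same mature protein, was lower in both clones, at -0.71 in clone 2 and -0.40 in clone 4. ATP5G2, the most highly expressed of them, was lower in clone 2 at -0.74, while -0.12 in clone 4 was not called. ATP5B, the catalytic beta subunit, had 843 and 749 CPM in clone 4 and 982 and 981 CPM in clone 2, against 1372, 1320.3 and 1261 CPM in parental cells. Both clones were below the parental range and clone 4 was the lower, with -0.73 ± 0.10 (adjusted p = 7.10e-05, edgeR) in clone 4 and -0.43 ± 0.10 (adjusted p = 0.00386, edgeR) in clone 2. ATP5A1, the alpha subunit, changed by -0.41 in clone 4 and -0.44 in clone 2, both called. The 4 peripheral stalk genes were all lower in clone 2, among them ATP5O (-0.86) and ATP5J (-0.71), as were the 3 tested small membrane subunits. ATP5D (-0.03) and ATP5S (0.24), which codes for factor B, were not called in clone 2. ATP5B lost its clone 2 call without either clone 2 library.

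**Figure D3:**
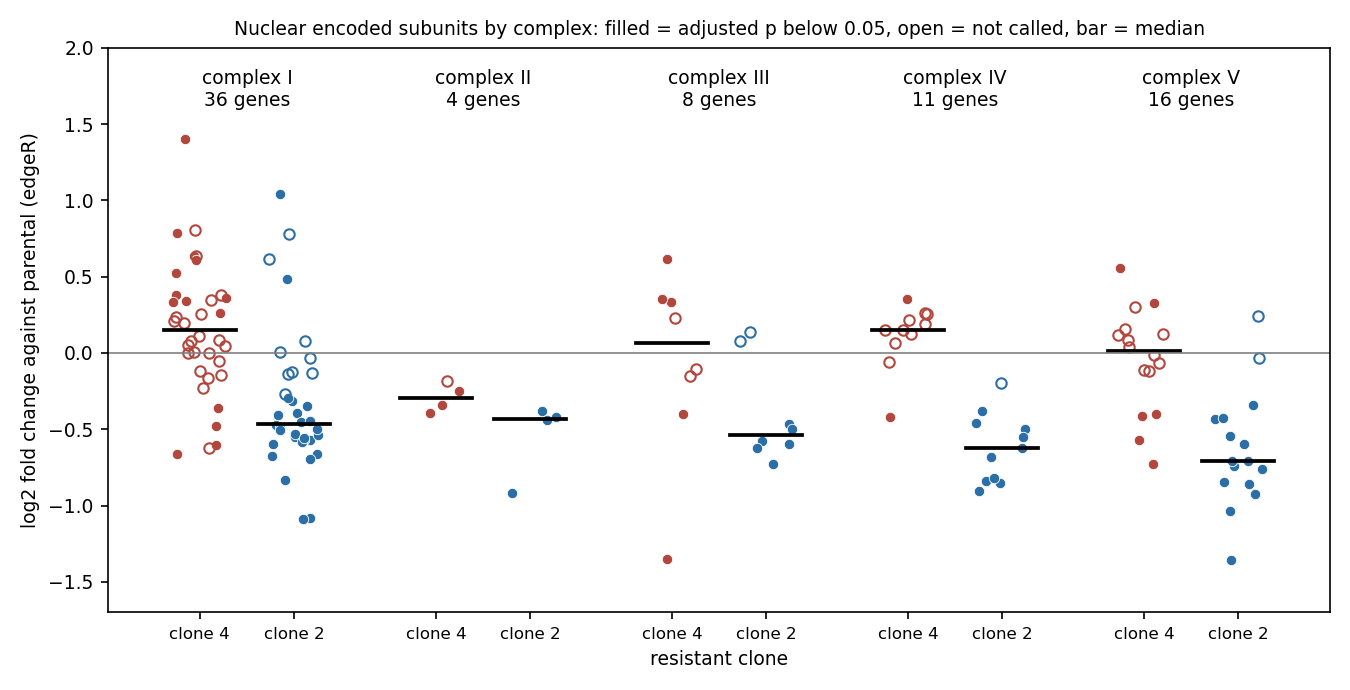
Log2 fold change of the 75 tested nuclear subunits (linear axis) in clone 4 and clone 2, grouped by complex; filled points are called at an adjusted p below 0.05, open points are not, and bars are medians. Clone 2 medians lie between -0.43 and -0.71 in all 5 complexes, while clone 4 medians lie between -0.30 and 0.15 with points on both sides of 0 in every complex but II.

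Clone 4 had no shared direction among nuclear subunits. Of 75, 16 were higher and 14 lower, beside 22.1% and 22.3% of all genes, with a median of 0.09, against 0.01. The range was -1.35 (UQCRC2) to 1.40 (NDUFB8). Complex I had 10 higher and 4 lower, complex II 0 and 3, complex III 3 and 2, complex IV 1 and 1, and complex V 2 and 4. The higher count was 7 without parental replicate 1, where 3068 of all genes were called higher, against 3862 in the main fit. Without clone 4 replicate 2, fewer members were called higher or lower, and so were fewer of all genes. Without clone 4 replicate 1, more members were called higher, though fewer of all genes were.

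NDUFB8, a membrane arm accessory subunit, had 20.2 and 28.0 CPM in clone 4, against 7.66, 9.54 and 9.95 CPM in parental cells. Both clone 4 libraries were above all others, and it rose by 1.40 ± 0.17 (adjusted p = 2.03e-05, edgeR), a fold of 2.64. Of its exon bases, 48.5% are shared with AL133352.1, on the same strand, or HIF1AN, on the other, and reads from the shared bases cannot be assigned with certainty. NDUFB1, another accessory subunit, had 225 and 280.3 CPM in clone 4, against 131, 162 and 147 CPM in parental cells. No exon base of NDUFB1 is shared, its groups did not overlap, and its change was 0.78 ± 0.12 (adjusted p = 1.24e-04, edgeR). NDUFS5, a small accessory subunit, had 317 and 364 CPM in clone 4, against 201, 237 and 230.2 CPM in parental cells, also without overlap, and changed by 0.61 ± 0.10 (adjusted p = 3.75e-04, edgeR). NDUFS8, an iron-sulfur core subunit, was higher at 0.53 in clone 4, while -0.12 in clone 2 was not called. On the lower side, NDUFB5 had 207 and 174 CPM in clone 4, against 299, 294 and 310.1 CPM in parental cells, with -0.66 ± 0.10 (adjusted p = 1.73e-04, edgeR). Both clone 4 libraries were below all parental ones.

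In all, 11 nuclear members were called lower in both clones, beside 10.7% of all genes: NDUFS1, NDUFB5, SDHA, SDHC, SDHD, UQCRC2, COX5A, ATP5A1, ATP5B, ATP5G1 and ATP5G3. Only NDUFA11 was called higher in both. Another 37 were lower in clone 2 and not called in clone 4, beside 8.63% of all genes. NDUFS8, NDUFB8, NDUFC2 and UQCR11 were higher in clone 4 and not called in clone 2, NDUFA10 and UQCRFS1 were among those lower in clone 4 and not called in clone 2, and NDUFV2 was higher in clone 2 and not called in clone 4. The 7 called in neither were NDUFS7, NDUFV1, NDUFA7, NDUFA13, NDUFA4, ATP5D and ATP5S. Both comparisons use the same 3 parental libraries, so these counts are not independent. A further 11 were called in opposite directions, higher in clone 4 and lower in clone 2, beside 1.47% of all genes: NDUFA1, NDUFA3, NDUFA6, NDUFB1, NDUFB4, NDUFS5, UQCRQ, UQCR10, COX8A, ATP5H and ATP5I. All are small accessory or peripheral subunits; none belongs to the core of complex I, to complex II or to the F1 head or c ring of complex V.

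ATP5I, subunit e of the membrane part of complex V, had 214 and 293 CPM in clone 4 and 82.2 and 85.5 CPM in clone 2, against 153, 187 and 177 CPM in parental cells. The 3 groups did not overlap. Its log2 fold changes were 0.56 ± 0.13 (adjusted p = 0.00313, edgeR) in clone 4 and -1.04 ± 0.14 (adjusted p = 4.49e-05, edgeR) in clone 2, and clone 2 against clone 4 gave -1.60 ± 0.15 (adjusted p = 6.98e-06, edgeR), a fold of 3.02 downward whose direction the choice of genes with opposite calls fixes. MYL5, on the other strand, shares 61.6% of its exon bases. NDUFB1 had 104 and 104 CPM in clone 2, below every parental library, and changed there by -0.50 ± 0.12 (adjusted p = 0.00447, edgeR). NDUFA1, a small membrane subunit, had 132 and 158 CPM in clone 4 and 64.8 and 60.7 CPM in clone 2, against 107, 128 and 99.9 CPM in parental cells, with changes of 0.38 and -0.83 in clones 4 and 2, and RNF113A on the other strand shares 44.5% of its exon bases. ATP5H, subunit d of the peripheral stalk, had 363 and 375 CPM in clone 4 and 175 and 172 CPM in clone 2, against 267, 302 and 313 CPM in parental cells, with 0.33 in clone 4 and -0.76 in clone 2. None of these 3 had overlapping groups. NDUFS5 changed by -0.41 in clone 2. The other 6 rose in clone 4 by log2 changes of 0.26 (NDUFB4) to 0.36 (NDUFA3) and had clone 2 changes of -0.55 (COX8A) to -0.35 (NDUFB4). Of all 11, only UQCRQ had a clone 4 library within the parental range. The opposite calls themselves rested on single libraries for many: both calls held for 2 (NDUFB1 and NDUFS5) without clone 4 replicate 2, for 3 (these and ATP5I) without parental replicate 1, and for 6 without either clone 2 library. Both calls held for 8 with the length trend removed, 7 with length and GC trends removed, 8 where only the groups compared were fitted and 0 against a fold of 1.5.

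**Figure D4:**
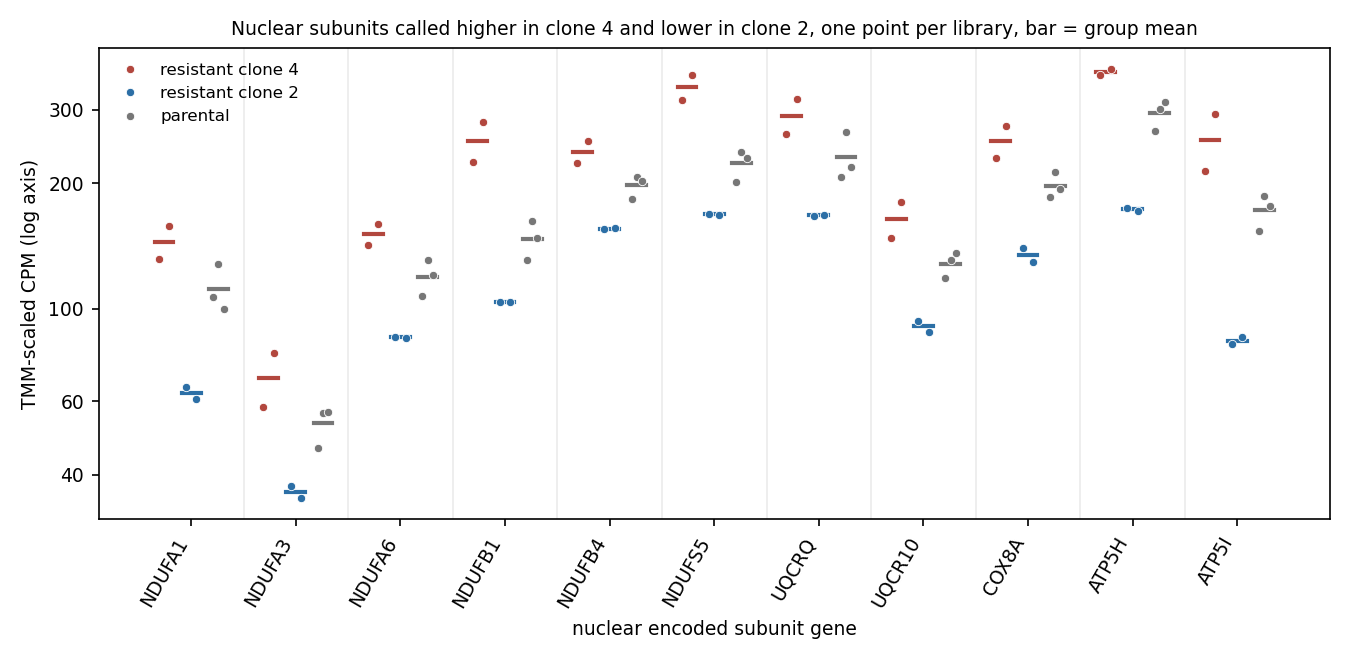
TMM-scaled CPM (log axis) of the 11 nuclear subunits called higher in clone 4 and lower in clone 2, one point per library and a bar at each group mean, with clone 4, clone 2 and parental cells from left to right for each gene. Clone 4 libraries are highest and clone 2 libraries lowest for each gene, except that 1 clone 4 library of UQCRQ lies within the parental range.

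Between the clones, clone 2 was lower for 54 of 75 nuclear members and higher for 5, beside 17% lower and 19.6% higher among all genes, with a median of -0.57, against 0.03. Complex IV had 10 of 11 lower, complex I 26 of 36, complex V 11 of 16, complex III 6 of 8 and complex II 1 of 4, SDHD. Among the 5 higher in clone 2 were NDUFA13, UQCRC2, UQCRFS1 and ATP5B. ATP5B had 982 and 981 CPM in clone 2, against 843 and 749 CPM in clone 4, without overlap and with 0.30 ± 0.11 (adjusted p = 0.0428, edgeR). NDUFA2 had 109 and 105 CPM in clone 2, against 232 and 299 CPM in clone 4, without overlap and with -1.31 ± 0.15 (adjusted p = 2.72e-05, edgeR). ATP5B lost this call without clone 4 replicate 2, either clone 2 library or parental replicate 1. The higher count was 1 without clone 4 replicate 2, 1 without clone 2 replicate 2, 2 without clone 2 replicate 1 and 3 without parental replicate 1. Among all genes 2462, 1876, 2015 and 3238 were then higher, in the same order, against 3422 in the main fit.

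The values of nuclear members varied with transcript length, taken as the median over basic GENCODE v29 transcripts. The 51 members under 1000 bases had a median log2 change of 0.19 in clone 4 and -0.55 in clone 2, and the 9 members of 2000 bases or more had -0.40 in clone 4 and -0.42 in clone 2. Over all nuclear genes under 1000 bases the medians were 0.09 in clone 4 and -0.08 in clone 2. As a description across genes, Spearman's rho between length and log2 fold change was -0.35 in clone 4, 0.26 in clone 2 and 0.51 between the clones over the 75 members, and -0.09, 0.11 and 0.22 over 16916 nuclear genes. These points share libraries and are not independent. Transcripts under 1000 bases took 19.7% and 20.9% of counts in clone 4 and 16.1% and 15.8% in clone 2, against 16.9%, 18.5% and 17.5% in parental cells. Cytosolic ribosomal protein genes, also short, took 6.93% and 6.90% in clone 4 and 5.17% and 5.07% in clone 2, against 6.36%, 7.17% and 6.05% in parental cells. With each library's trend over length removed, 55 nuclear members were lower in clone 2, and 12 were higher and 16 lower in clone 4. With length and GC trends removed these were 56, 14 and 21. The same counts over all genes were 3547, 3771 and 3763 without the length trend, and 3695, 3928 and 3922 without both. Clone 2 was then called below clone 4 for 45 and 47 members under the 2 corrections, beside 2755 and 3045 of all genes.

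**Figure D5:**
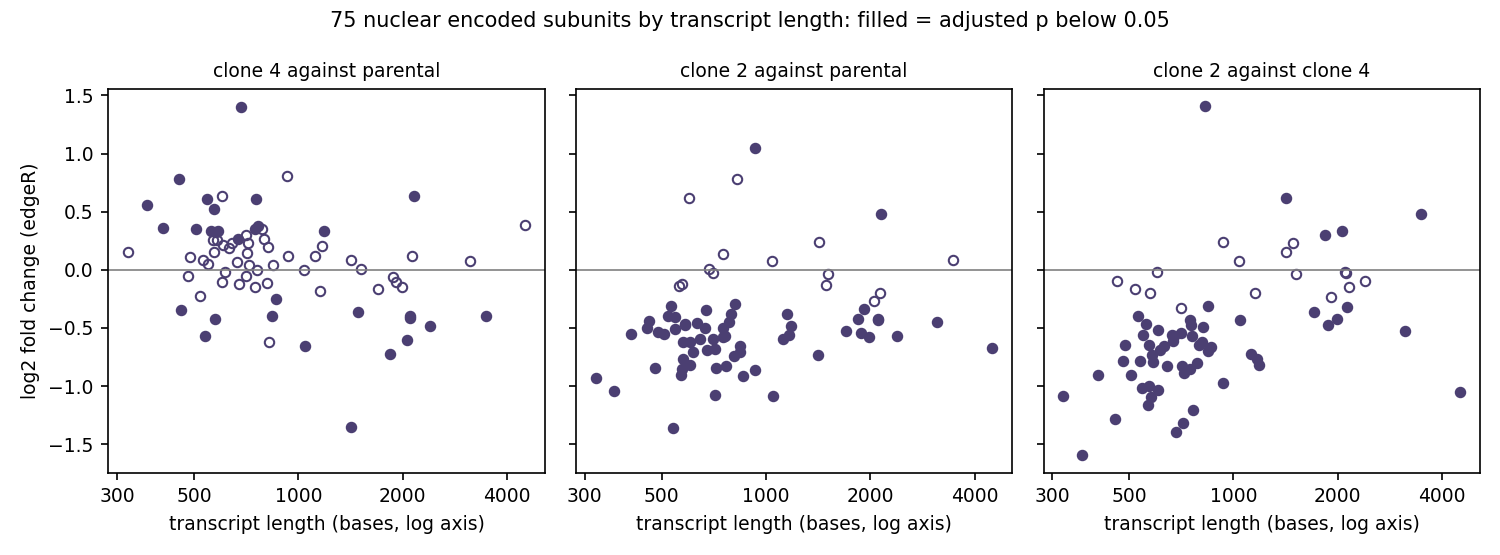
Log2 fold change of the 75 tested nuclear subunits against transcript length in bases (log axis) for clone 4 against parental, clone 2 against parental and clone 2 against clone 4; filled points are called at an adjusted p below 0.05. Short transcripts sit higher in clone 4 (median 0.19 under 1000 bases) than long ones (-0.40 from 2000 bases), while the clone 2 medians are -0.55 and -0.42 in the same classes.

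Of the 75 members, 32 share 0.0% of exon bases, after rounding, with other genes in that annotation, counting ATP5A1, which HAUS1 overlaps slightly. Among these, 28 were lower and 0 higher in clone 2 (median -0.52), and 4 were higher and 9 lower in clone 4 (median -0.0036). Among the 43 with a larger overlap, 31 were lower and 2 higher in clone 2, and 12 were higher and 5 lower in clone 4 (median 0.16). These counts, and those by motif, stand beside the shares among all genes. Those were 20.8% lower and 21.7% higher in clone 2, and 22.1% higher and 22.3% lower in clone 4. By motif, members with NRF1 letters had 9 of 10 lower in clone 2 and 41 of 51 without them, members with ETS letters 17 of 19 and 33 of 42 without, and members with YY1 letters 6 of 8 and 44 of 53 without. In clone 4, members with ETS letters had 6 of 19 higher and 2 lower, and those without had 8 of 42 higher and 7 lower. SDHD, with the only estrogen-related receptor letters, and UQCRC2 and NDUFB1, with none of the 4, were each called in both clones.

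Lists of genes that build or serve the complexes are described by counts only, to be read beside the 22.1% higher and 22.3% lower in clone 4 and the 21.7% higher and 20.8% lower in clone 2 among all genes, and the genes named are mostly called ones with the highest or lowest values. Of 13 complex I assembly factors, 3 were higher and 3 lower in clone 4, and 1 was higher and 7 lower in clone 2. NDUFAF2 had 63.4 and 66.6 CPM in clone 4 and 29.6 and 28.4 CPM in clone 2, against 40.9, 43.9 and 50.9 CPM in parental cells, higher in clone 4 (0.52) and lower in clone 2 (-0.64), while NDUFAF1 was lower in both (-0.59 and -0.95). Of 12 assembly factors of complexes II, III and V, 4 were higher and 1 lower in clone 4, and 1 was higher and 6 lower in clone 2. SDHAF2, which adds flavin to SDHA, was higher in clone 4 (0.48) and lower in clone 2 (-0.59). Of 22 complex IV assembly factors, 9 were higher and 1 lower in clone 4, and 1 was higher and 9 lower in clone 2. COA6, which takes part in copper delivery, had 73.2 and 79.2 CPM in clone 4 and 31.3 and 34.5 CPM in clone 2, against 50.01, 55.0 and 58.5 CPM in parental cells, without overlap between groups, and changed by 0.48 ± 0.11 (adjusted p = 0.0023, edgeR) in clone 4 and -0.73 ± 0.11 (adjusted p = 1.70e-04, edgeR) in clone 2.

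Of 17 electron carriers, ubiquinone synthesis genes and minor complex V parts, 4 were higher and 7 lower in clone 4, and 1 was higher and 12 lower in clone 2. ETFA, which feeds electrons from fatty acid oxidation, had 80.3 and 61.7 CPM in clone 4 and 124 and 128 CPM in clone 2, against 173, 162 and 173 CPM in parental cells, with -1.25 ± 0.12 (adjusted p = 2.35e-06, edgeR) in clone 4 and -0.43 ± 0.11 (adjusted p = 0.00787, edgeR) in clone 2. ATPIF1, the inhibitor of the ATP synthase, was lower in clone 2 (-0.73) and not called in clone 4 (0.26). Of 17 citrate cycle and pyruvate dehydrogenase genes, 1 was higher and 11 lower in clone 4, and 1 was higher and 10 lower in clone 2. IDH2, the NADP-dependent mitochondrial isocitrate dehydrogenase, had 197 and 178 CPM in clone 4 and 196 and 203 CPM in clone 2, against 515, 521 and 486 CPM in parental cells. Both clones were far below the parental range, with -1.43 ± 0.10 (adjusted p = 1.45e-07, edgeR) in clone 4 and -1.34 ± 0.10 (adjusted p = 2.58e-07, edgeR) in clone 2. Of 19 import and quality control genes, 2 were higher and 7 lower in clone 4, and 1 was higher and 10 lower in clone 2, TOMM20 being lower in both (-0.76 and -0.48). Of 73 mitochondrial ribosomal protein genes, 20 were higher and 13 lower in clone 4, and 2 were higher and 46 lower in clone 2, with medians of 0.07 in clone 4 and -0.37 in clone 2. MRPL52 was higher in both (1.39 and 0.59) and MRPS11 lower in both (-0.53 and -0.97).

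Of 12 genes of mitochondrial DNA upkeep and transcription, 2 were higher and 3 lower in clone 4, and 2 were higher and 4 lower in clone 2. POLRMT, the mitochondrial RNA polymerase, had 49.1 and 68.0 CPM in clone 4 and 73.3 and 67.0 CPM in clone 2, against 45.1, 43.8 and 42.4 CPM in parental cells. All resistant libraries were above the parental ones, with 0.42 ± 0.13 (adjusted p = 0.0173, edgeR) in clone 4 and 0.68 ± 0.13 (adjusted p = 7.58e-04, edgeR) in clone 2. TFAM, which packages mitochondrial DNA and starts its transcription, was called in neither (-0.28 and -0.28). Of 19 mitochondrial RNA processing genes, 5 were higher and 5 lower in clone 4, and 1 was higher and 4 lower in clone 2. LRPPRC, which stabilises mitochondrial mRNA with SLIRP, was lower in clone 4 (-0.47) and not called in clone 2 (-0.17). SLIRP was higher in clone 4 (0.80) and not called in clone 2 (0.11). Of 12 transcriptional regulators, 2 were higher and 1 lower in clone 4, and 3 were higher and 3 lower in clone 2. PPARGC1A, a coactivator of mitochondrial gene programmes, was low, at 4.05 and 3.33 CPM in clone 4 and 3.75 and 3.18 CPM in clone 2, against 1.57, 1.36 and 1.61 CPM in parental cells, and rose by 1.30 ± 0.24 (adjusted p = 7.57e-04, edgeR) in clone 4 and 1.19 ± 0.24 (adjusted p = 0.00151, edgeR) in clone 2. ESRRA, an estrogen-related receptor, was lower in clone 2 (-0.63) and not called in clone 4 (-0.03), and the same held for GABPA (-0.59 in clone 2 and -0.21 in clone 4). NRF1 and PPARGC1B were called in neither clone. Of 4 tested tissue-restricted subunit isoforms, 1 was higher and 1 lower in clone 4, and 1 was lower in clone 2. COX7B2 was lower in clone 4 (-1.13), and COX4I2 was at 0 in every library.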

How the data were processed

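Gene-level RNA-seq counts from 7 libraries were used as deposited, 1 table of whole-number counts per gene; per the submitters' processing notes, FastQC, CASAVA and STAR were used with hg19. No version was stated for them, and the counting tool, annotation release and strandedness were not given. The members and lists were chosen with earlier results of these data known. Rows without a gene name (6724 rows, 1.02% to 1.41% of counts) carry an Ensembl identifier and were kept in library sizes and tests; shares are of all counts.

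Counts were filtered with filterByExpr (minimum count 10), scaled by TMM and fitted with edgeR 4.0.16 (quasi-likelihood, robust, R 4.3.3) with 1 mean for each of the 3 groups over all 7 libraries. Adjusted p-values are Benjamini-Hochberg over 17502 genes, and a gene was called at an adjusted p below 0.05. The common biological coefficient of variation was 0.0997. The genes named are every mitochondrially encoded member, the called nuclear members with the 2 highest and 2 lowest fold changes per complex and comparison, those called in opposite directions in the clones, and up to 2 called genes at each end of the other lists. TFAM, POLRMT, NRF1, GABPA, ESRRA, PPARGC1A, PPARGC1B and LRPPRC were named whatever their values, and other genes, such as NDUFV1, after their values were seen. Alternatives were RLE scaling, scaling without mitochondrial rows, DESeq2 1.42.0, other filters, a test against a fold of 1.5, fits of only the groups compared, a replicate block, length and GC trends removed, and leaving out each library. GENCODE v29 (GRCh38) gave lengths, GC and exon overlap, without coordinates. Replicate numbers come from the descriptions; clone 2 replicates 1 and 2 carry 4 and 6 in their titles. Values of 1 member are not reported here.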

Additional observations from a re-analysis of the deposited data

Results flagged for a closer look

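For 11 nuclear subunits the change against parental cells differed between the clones, each called higher in clone 4 and lower in clone 2 (edgeR). Choosing genes by opposite calls against the same parental libraries fixes the direction of clone 2 against clone 4, so the values are a description. The log2 fold changes of clone 2 against clone 4 were -1.60 for ATP5I, -1.28 for NDUFB1, -1.21 for NDUFA1, -1.09 for ATP5H and -1.01 for NDUFS5. They were -0.91 for NDUFA3, -0.91 for COX8A, -0.86 for UQCR10, -0.82 for NDUFA6, -0.79 for UQCRQ and -0.61 for NDUFB4. The pair of opposite calls held for 2 without clone 4 replicate 2, for 3 without parental replicate 1, for 8 with the length trend removed, for 7 with length and GC trends removed, for 8 where only the groups compared were fitted and for 0 against a fold of 1.5.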

How the results depend on the processing

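No named member that was called changed direction under the alternatives run. Against a fold of 1.5, the clone 4 counts were 0 mitochondrial members higher, 1 nuclear higher and 1 nuclear lower. The clone 2 counts were 0 mitochondrial higher, 1 mitochondrial lower, 0 nuclear higher and 11 nuclear lower, and between the clones 2 mitochondrial and 14 nuclear members were lower and 0 nuclear higher. Of all genes, that test called 7.12% higher and 6.49% lower in clone 4, 8.51% and 3.93% in clone 2, and 5.21% and 2.75% between the clones. DESeq2 called 6 mitochondrial members lower and 0 nuclear higher in clone 2, and 3 nuclear higher in clone 2 than in clone 4, as RLE scaling did (3). Removing the length trend gave 4 nuclear members higher in clone 2, and removing length and GC gave 1, with 6 mitochondrial lower between the clones. Same-number libraries correlated at -0.08 to 0.19. This cannot settle whether they were paired, because deviations within a group of 2 libraries mirror each other. With a replicate block 28 nuclear members were higher in clone 4, and 4255 of all genes were, against 3862 in the main fit. Leaving out a clone library lowered the calls among all genes in every comparison of that clone. Leaving out each library, clone 4 had 3 to 9 mitochondrial members higher and 0 to 0 lower, 5 to 24 nuclear higher and 8 to 13 lower. Clone 2 had 0 to 1 mitochondrial higher and 3 to 5 lower, and 0 to 3 nuclear higher and 41 to 60 lower. Between the clones 5 to 12 mitochondrial were lower and 0 to 0 higher, and 1 to 6 nuclear were higher and 41 to 54 lower. With mitochondrial rRNA and tRNA added, the mitochondrial share averaged 11.4% in clone 2 and 10.2% in parental cells, and with nuclear copies added it was 9.80% in parental cells. The causes were not tested. Of all genes called, the share higher was 68.4% in clone 2 and 65.4% between the clones against a fold of 1.5, and 51.1% and 53.5% in the main test. With 2 libraries in each clone, small changes such as those of MT-ND4L and NDUFB4 rest on few values, and NDUFV2, NDUFA7 and NDUFA13 on few counts.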
